A study of Mus musculus with 12 samples.

Results

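The T cell receptor complex and its coreceptors were followed through 10 genes in RNA-seq of periocular skin. The genes were the rows of the count table whose symbols equalled *Cd3d*, *Cd3e*, *Cd3g*, *Cd247*, *Cd4*, *Cd8a*, *Cd8b1*, *Cd2*, *Lck* and *Zap70*, and all 10 were found among the 21247 genes of the table. Each was also among the 20454 genes with enough reads for testing. There were 4 libraries labelled ft/ft and 4 labelled ft/ftMyD88-/-, from mice which the design text of the study gives as 6-week-old females on a BALB/c background. Both groups carried the ft point mutation of filaggrin (*Flg*) on both alleles, without the ma mutation of *Tmem79*, and ft/ftMyD88-/- mice lacked MyD88 in addition, in every cell type. The comparison asks what the loss of MyD88 changed in filaggrin-deficient skin, and libraries of wildtype mice were not analysed here.

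Alpha beta T cells recognise peptides held by MHC molecules through a T cell receptor that has no signalling tail of its own. The CD3 delta, epsilon and gamma chains and the zeta chain encoded by *Cd247* carry the tails, the kinase LCK phosphorylates them, and the kinase ZAP-70 then docks onto them. CD4 and CD8 bind MHC class II and class I and bring LCK to the receptor, while CD2 binds CD48 on neighbouring cells in mice. Skin holds alpha beta T cells as well as gamma delta T cells, including the resident gamma delta T cells of mouse epidermis, most of which carry CD3 without CD4 or CD8.

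The 8 libraries held 15802957 to 29255129 counts, with similar totals in both groups (p = 0.457 by an exact permutation test, two-sided). Values are given as CPM, counts scaled to a common library size after edgeR's TMM scaling for library composition, with the SD over 4 libraries. *Myd88* stood at 32.1, 36.5, 28.7 and 25.4 CPM in replicates 1 to 4 labelled ft/ft and at 38.8, 48.8, 32.2 and 44.9 CPM in those labelled ft/ftMyD88-/-. It was thus not lower under the label of its knockout but higher (log2 fold change 0.42, SE 0.142, edgeR, adjusted p = 0.0484), a count per gene cannot show a deleted exon, and every direction below rests on the labels. *Xist*, transcribed in females, had a single read among the ft/ft libraries (1, 0, 0 and 0 counts) and 34.6 to 66.8 CPM in the libraries labelled ft/ftMyD88-/-, whereas the Y-linked *Ddx3y* was at 54.2 to 73.2 CPM in ft/ft and at 0 to 0.482 CPM in ft/ftMyD88-/-. The ft/ft libraries therefore went against the stated sex, and in every comparison below an effect of genotype cannot be told apart from one of sex. *Tmem79* was also lower in the libraries labelled ft/ftMyD88-/- (59.2 ± 2.92 against 16.4 ± 2.10 CPM, SD, n = 4 each, edgeR adjusted p = 5.08e-07). For the tissue label, 8 keratinocyte genes had a summed level between 21660 and 34161 CPM in the 8 libraries. Skeletal muscle genes were present too, at 8676 to 12060 summed CPM in ft/ft and 3463 to 6598 in ft/ftMyD88-/- over 10 genes.

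Of the 10 genes, 9 were higher in the libraries labelled ft/ftMyD88-/- (edgeR's quasi-likelihood test, Benjamini-Hochberg adjusted over all genes tested), against 10.9% of all genes tested in that direction and 23.3% in either. None was lower, and *Cd247* did not pass. In each of the same 9 genes, every ft/ftMyD88-/- library lay above every ft/ft library, which was so for 12.5% of all genes. The median log2 fold change of the 10 genes was 1.02, while that of all genes tested was 0.01. Of the 10, 6 both passed the test and had a log2 fold change of at least 1, as did 3.68% of all genes. In bulk tissue, more cells of a type and more RNA per cell cannot be told apart. All of these genes were scarce in whole skin, and 9 of the genes had mean levels under 6 CPM in both groups.

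**Figure D1:**
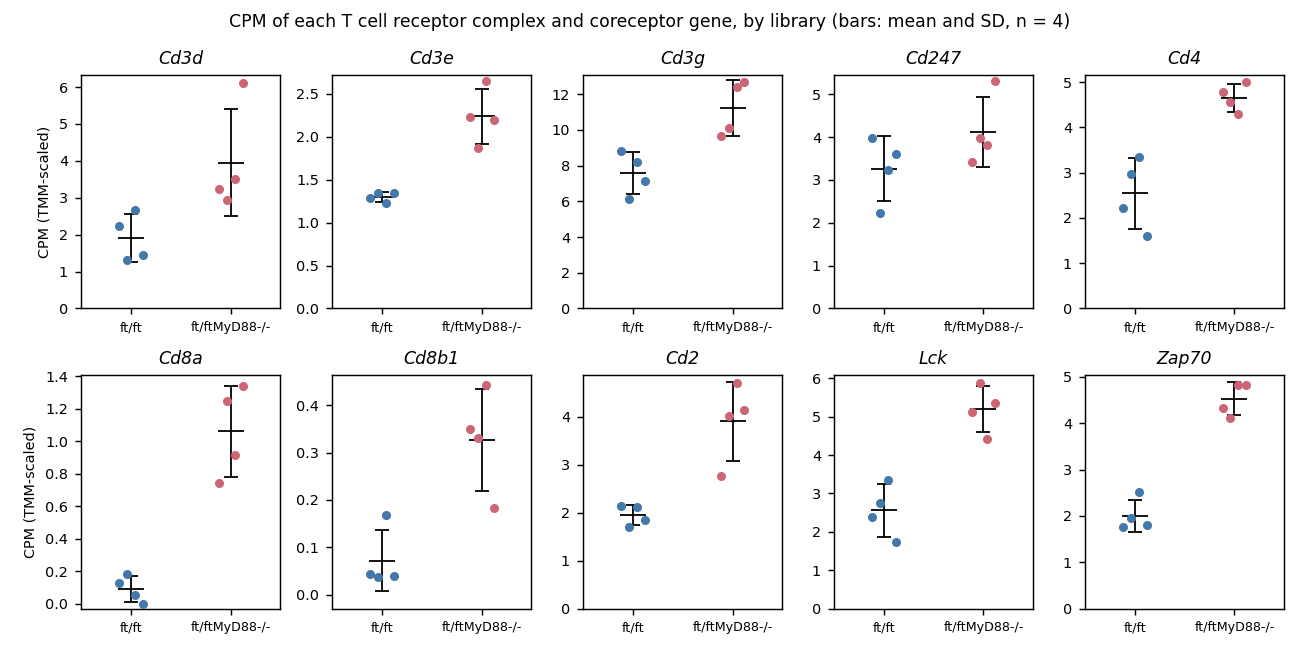
Level of each of the 10 genes in CPM (linear y axis, from 0 or just below it, with a scale of its own for each gene) in the 4 ft/ft libraries and the 4 ft/ftMyD88-/- libraries. Points are libraries, and bars give the mean and SD. The groups overlap for *Cd247* only, and *Cd8a* and *Cd8b1* lie near 0 in ft/ft.

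The 3 CD3 chains are encoded side by side on chromosome 9 (GRCm38.p6). *Cd3g* (44969572 to 44980431) and *Cd3d* (44981769 to 44987052) point away from each other with 1337 bases between them, and *Cd3e* (44998735 to 45009663) follows after another 11682 bases. Since both genes of the divergent pair were higher in ft/ftMyD88-/-, the 150 bases directly before the RefSeq start of each are printed, 5′ to 3′ on each gene's own strand, beside those of *Cd8a*, the gene with the largest change. Capitals mark letters of 4 short motifs searched on both strands, which were TGTGGT (RUNX), AGGAAG (ETS), CACCTG (E-box) and CTTTGA (TCF/LEF), and these motifs were chosen after the sequences had been seen.
Cd3g, chr9:44980432-44980581, minus strand: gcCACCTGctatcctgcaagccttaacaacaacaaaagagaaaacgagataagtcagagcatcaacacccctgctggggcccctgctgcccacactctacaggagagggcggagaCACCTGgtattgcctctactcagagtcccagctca
Cd3d, chr9:44981619-44981768, plus strand: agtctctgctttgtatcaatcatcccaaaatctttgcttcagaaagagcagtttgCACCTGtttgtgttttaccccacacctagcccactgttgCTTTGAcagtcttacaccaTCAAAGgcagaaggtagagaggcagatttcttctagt
Cd8a, chr6:71373277-71373426, plus strand: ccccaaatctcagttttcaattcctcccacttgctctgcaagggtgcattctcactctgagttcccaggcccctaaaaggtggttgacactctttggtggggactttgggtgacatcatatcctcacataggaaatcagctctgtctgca
The capitals in *Cd3g* are both E-box letters, those in *Cd3d* are 1 E-box and 2 TCF/LEF matches, and *Cd8a* held no match. Of the 6 genes with such a sequence in RefSeq, 2 held the E-box letters (*Cd3d* and *Cd3g*), as did 10.7% of 22803 promoters. The TCF/LEF letters were in 2 of the 6 (*Cd3d* and *Zap70*) and in 8.46% of promoters, the ETS letters in 2 (*Lck* and *Zap70*) and in 19.5%, and the RUNX letters in 1 (*Lck*) and in 8.93%. A match describes the letters alone. Sequences for *Cd247*, *Cd4*, *Cd8b1* and *Cd2* are not shown.

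*Cd3g*, whose chain is needed to assemble the receptor, was the most abundant of the 10 genes. It stood at 8.83, 6.15, 8.20 and 7.13 CPM in ft/ft replicates 1 to 4 and at 9.68, 10.1, 12.4 and 12.7 CPM in ft/ftMyD88-/-. The lowest ft/ftMyD88-/- library lay just above the highest ft/ft library, and the rise was 1.48-fold in the group means (log2 fold change 0.57, SE 0.149, edgeR, adjusted p = 0.0167). *Cd3e*, whose chain pairs with both CD3 delta and CD3 gamma, was at 1.29, 1.35, 1.23 and 1.34 CPM in ft/ft and at 2.23, 1.87, 2.65 and 2.20 CPM in ft/ftMyD88-/-. Its ft/ft libraries were the most even of all, at 1.30 ± 0.0558 CPM, and it rose by a log2 fold change of 0.78 (SE 0.195, edgeR, adjusted p = 0.0132). *Cd3d* stood at 2.23, 1.31, 2.68 and 1.46 CPM in ft/ft and at 3.24, 2.94, 3.50 and 6.10 CPM in ft/ftMyD88-/-. Replicate 4 of ft/ftMyD88-/- was high for this gene. The log2 fold change was 1.04 (SE 0.288, edgeR, adjusted p = 0.0215), and it was 0.78 with an edgeR adjusted p of 0.0662 without that library. The call was also lost without ft/ft replicate 2 (edgeR adjusted p = 0.0564) and without ft/ft replicate 4 (0.0674). *Cd3g* lost its call without ft/ft replicate 4 as well, narrowly (edgeR adjusted p = 0.0518).

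*Cd247*, the zeta chain gene on chromosome 1 (165779952 to 165871153), was the exception. Its levels were 3.99, 2.22, 3.24 and 3.60 CPM in ft/ft and 3.42, 3.97, 3.81 and 5.30 CPM in ft/ftMyD88-/-, so that the groups overlapped. The log2 fold change was 0.33 (SE 0.211, edgeR, adjusted p = 0.279), and a 95% interval from that standard error with 6 residual degrees of freedom ran from -0.18 to 0.85, which contains the estimates of both *Cd3g* and *Cd3e*. The gene was not called in any of the 16 fits tried. In the GENCODE M21 annotation of the same build, 3007 of the 5329 exonic bases of *Cd247* (56.4%) are also exonic in *Pou2f1*, which is transcribed from the opposite strand. *Pou2f1*, a broadly expressed transcription factor gene, had 2721 counts over the 8 libraries where *Cd247* had 691, and it did not pass the test itself (15.7 ± 1.31 CPM in ft/ft, 12.5 ± 2.11 in ft/ftMyD88-/-, log2 fold change -0.33, edgeR adjusted p = 0.0905). The counting tool named by the study reads strand at its default, but the TruSeq v2 kit it names does not mark strand. By those methods, reads of both genes over those bases cannot be told apart. The sample labels name another protocol, so whether this holds for these counts is not known. Of the other 9 genes, only *Cd3e* (135 bases, with *Gm48719*) and *Lck* (25 bases, with *Mir8119*) shared exonic bases with another gene.

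*Cd4*, the MHC class II coreceptor gene (chromosome 6, 124864693 to 124888247), stood at 2.23, 2.98, 3.35 and 1.61 CPM in ft/ft and at 4.78, 4.56, 4.29 and 5.0 CPM in ft/ftMyD88-/-. It was 1.83-fold higher in ft/ftMyD88-/-, where the 4 libraries were close together at 4.66 ± 0.305 CPM (log2 fold change 0.88, SE 0.215, edgeR, adjusted p = 0.0118). The MHC class I coreceptor genes were far scarcer and changed more. *Cd8a* (chromosome 6, 71373427 to 71379171) was counted 3, 5, 1 and 0 times in ft/ft, where a count of 0 in replicate 4 allows up to 0.115 CPM, and 17, 34, 27 and 22 times in ft/ftMyD88-/-. In CPM this was 0.0916 ± 0.0800 against 1.06 ± 0.279. The log2 fold change was 3.41 (SE 0.527, edgeR, adjusted p = 0.000971), and over the summed counts of each group the ratio was 11 with an exact 95% counting interval of 5.57 to 24.7. *Cd8b1* (71322788 to 71337492), the gene of the CD8 beta chain that joins CD8 alpha on conventional cytotoxic T cells, was counted 1, 1, 3 and 1 times in ft/ft, against 8, 9, 13 and 3 times in ft/ftMyD88-/-. Its libraries did not overlap in CPM (0.0364 to 0.167 in ft/ft, 0.183 to 0.442 in ft/ftMyD88-/-), but ft/ftMyD88-/- replicate 4 and ft/ft replicate 3 both had 3 counts. The ratio over summed counts was 5.44, with a counting interval of 2.25 to 15.9, and the fitted edgeR adjusted p was 0.0166. Without ft/ft replicate 4 it was 0.0510. These intervals cover counting error only, since they pool the reads of the 4 libraries of each group and leave out variation between mice. They also take each count as a separate molecule, which cannot be checked here.

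*Cd2*, the adhesion receptor gene (chromosome 3, 101275908 to 101287939), was at 2.14, 1.71, 2.12 and 1.84 CPM in ft/ft and at 2.76, 4.01, 4.70 and 4.15 CPM in ft/ftMyD88-/-. The rise was 2.00-fold, and the lowest ft/ftMyD88-/- library was replicate 1 (log2 fold change 1.00, SE 0.200, edgeR, adjusted p = 0.00408). The pair of kinases rose by about as much. *Lck* (chromosome 4, 129548344 to 129573641) was at 2.40, 2.76, 3.35 and 1.73 CPM in ft/ft and at 5.13, 5.88, 4.42 and 5.37 CPM in ft/ftMyD88-/-, a log2 fold change of 1.03 (SE 0.204, edgeR, adjusted p = 0.00397). *Zap70* (chromosome 1, 36761798 to 36782821) was at 1.76, 1.96, 2.51 and 1.80 CPM in ft/ft and at 4.34, 4.12, 4.83 and 4.82 CPM in ft/ftMyD88-/-. With a log2 fold change of 1.18 it had the smallest standard error of the genes above 1 and the smallest adjusted p of the 10 (SE 0.174, edgeR, adjusted p = 0.000756). *Cd2*, *Lck*, *Zap70*, *Cd4*, *Cd3e* and *Cd8a* were called in all 16 fits, including the 8 that each left out one library.

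Per kilobase of exon, the order of the levels was nearly the same in both groups. Such values compare genes only if reads fall along whole transcripts, as in the TruSeq preparation of the study's methods. The sample labels name Cell Ranger and a fixed-tissue protocol instead, so the ranking between genes is tentative. In ft/ft, *Cd3g* led with 2.32 CPM per kilobase (range over libraries 1.88 to 2.70), above every library of the next gene, *Cd2*, at 1.12 (0.982 to 1.23). *Cd2*, *Cd3d* (1.06) and *Lck* (0.874) overlapped in their libraries, as did *Lck*, *Zap70* (0.671), *Cd4* (0.630) and *Cd247* (0.612). *Cd3e* was at 0.319 (0.301 to 0.330), below every library of *Cd247*, and both CD8 genes were lower still, at 0.0480 for *Cd8b1* and 0.0252 for *Cd8a*, which overlapped. In ft/ftMyD88-/- the order was *Cd3g* (3.43), *Cd2* (2.24), *Cd3d* (2.17), *Lck* (1.78), *Zap70* (1.51), *Cd4* (1.15), *Cd247* (0.774), *Cd3e* (0.549), *Cd8a* (0.292) and *Cd8b1* (0.220). There, *Zap70* lay above every library of *Cd4*, *Cd4* above *Cd247*, and *Cd3e* above *Cd8a*, while *Cd8a* and *Cd8b1* overlapped. Lengths were taken over all annotated isoforms, so that a gene with long rare exons is understated. The CD3 chains occur together in the receptor, yet every library had more *Cd3g* than *Cd3e* per kilobase.

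To see whether the genes changed relative to one another, ratios were formed within each library, where library size cancels out. Each gene was set against *Cd3e* and against *Ptprc*, the gene of the pan-leukocyte protein CD45, and *Cd8b1* against *Cd8a*, which made 20 ratios (two-sided exact permutation tests, Benjamini-Hochberg adjusted). Of the 20, 2 had a raw p under 0.05 and none passed after adjustment. *Ptprc* itself rose from 22.2 ± 1.85 to 36.1 ± 4.55 CPM (log2 fold change 0.70, SE 0.111, edgeR, adjusted p = 0.00112). Relative to *Ptprc*, the log2 ratio of *Cd3e* differed by 0.07 (standard error 0.152), that of *Cd3g* by -0.12 (0.197), that of *Cd4* by 0.23 (0.251) and that of *Cd2* by 0.28 (0.156), with overlapping groups in each case. *Zap70* differed by 0.48 (standard error 0.145, exact permutation p = 0.0571, adjusted 0.229), with 1 ft/ft library inside the range of ft/ftMyD88-/-. *Cd247* differed by -0.34 (standard error 0.279), the lowest of the 10. *Cd8a* was the gene whose groups did not overlap in either ratio. Its log2 ratio to *Ptprc* was -10.18 to -6.91 in ft/ft, against -5.41 to -4.68 in ft/ftMyD88-/-, a difference of 2.97 (standard error 0.774). Against *Cd3e* the difference was 2.90 (standard error 0.802). The size of these differences depends on the 0.5 added to the few *Cd8a* counts of ft/ft. Against *Ptprc* and *Cd3e*, it was 2.57 and 2.51 with 1 added to each count, and 3.71 and 3.63 with 0.1 added. With 0.5 added, both *Cd8a* ratios had an exact permutation p of 0.0286, the smallest that 4 libraries against 4 allow, and 0.229 after adjustment. At that smallest p, an adjusted p under 0.05 would have needed 12 of the 20 ratios without overlap, so the adjusted values cannot tell the ratios apart. *Cd8b1* to *Cd8a* could not be resolved at this depth, with a difference of -1.58 (standard error 0.952, exact permutation p = 0.257).

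**Figure D2:**
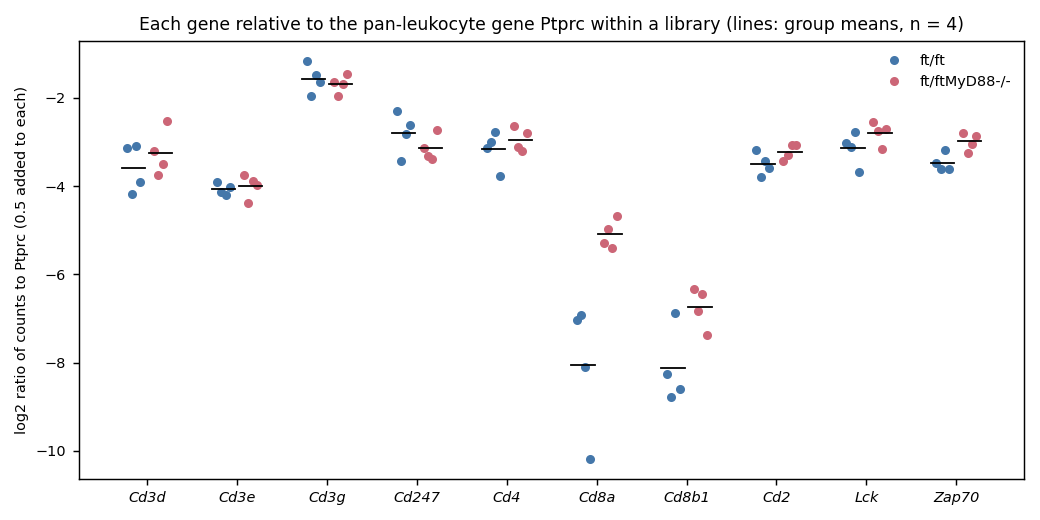
Log2 ratio of each gene's counts to those of *Ptprc* within a library (0.5 added to each count). Points are libraries of ft/ft and ft/ftMyD88-/-, and lines are the group means. *Cd8a* is the gene without overlap, at -10.18 to -6.91 in ft/ft against -5.41 to -4.68 in ft/ftMyD88-/-.

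Within the groups, the genes did not rise and fall as one. Over the 45 pairs, Pearson's r between deviations from the group means had a median of 0.15 across the 8 libraries and ran from -0.55 (*Cd3e* and *Lck*) to 0.93 (*Cd4* and *Lck*). Among the CD3 chain genes, *Cd3d* and *Cd3g* had an r of 0.81 and *Cd3g* and *Cd247* of 0.78, but *Cd3e* had -0.09 with *Cd3d*, 0.20 with *Cd3g* and -0.16 with *Cd247*. All points of a pair share a library and its depth, and counts this low are noisy, so these values are descriptive. The 10 other genes whose deviations were most like the mean of the CD3 genes, of 13501 genes compared, had r from 0.95 to 0.99. *Metap1d*, *AC122438.1* and *Cbx3* led them, and none of the 10 belonged to any list used here. The best of so many genes over 8 libraries can reach a high r by selection alone, so no link to the CD3 genes is drawn from them.

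Other genes of the receptor's pathway were taken from 3 lists holding 47 genes, of which 45 were tested. Of these, 14 were higher and 3 lower in the libraries labelled ft/ftMyD88-/-, and 28 did not pass, with a median log2 fold change of 0.34. Among all genes tested, 10.9% were higher and 12.3% lower. These counts moved with the scaling, and total counts alone in place of TMM gave 27 higher and 1 lower of the 45, with 4638 higher and 1326 lower among all genes instead of 2239 and 2525. The list of proximal signalling had 5 of 22 genes higher. *Lat*, the membrane scaffold that ZAP-70 phosphorylates, rose from 2.40 ± 0.0912 to 4.62 ± 0.830 CPM (edgeR adjusted p = 0.00286). *Vav1*, a guanine nucleotide exchange factor, had a log2 fold change of 0.76 (edgeR adjusted p = 0.00293). *Plcg1* (-0.06), *Malt1* (0.06), *Fyn* (0.11) and *Bcl10* (0.21) were among the 14 that did not pass. *Trat1*, a transmembrane adaptor that binds the T cell receptor complex, fell. It was at 2.27, 1.09, 2.18 and 1.99 CPM in ft/ft and at 0.701, 0.772, 1.26 and 0.549 CPM in ft/ftMyD88-/-, with one overlap between ft/ft replicate 2 and ft/ftMyD88-/- replicate 3 (log2 fold change -1.15, SE 0.311, edgeR, adjusted p = 0.0195). *Nfatc1* (-0.42, edgeR adjusted p = 0.0211) and *Rasgrp1* (-0.49, edgeR adjusted p = 0.0239), a transcription factor gene and a Ras activator gene, fell as well. Without ft/ftMyD88-/- replicate 4, none of the 3 passed.

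Negative regulators of the receptor were higher in 7 of 15 genes and lower in none, with a median log2 fold change of 0.26. *Cd6*, a surface receptor of T cells, rose from 0.782 ± 0.236 to 2.58 ± 0.629 CPM (log2 fold change 1.74, edgeR adjusted p = 0.00109). The phosphatase gene *Ptpn22* followed with a log2 fold change of 1.03 (edgeR adjusted p = 0.0016), and *Sla*, an adaptor that lowers receptor levels, with 0.89 (edgeR adjusted p = 0.00885). *Csk*, the kinase gene that restrains LCK, had means of 112 ± 9.52 and 98.1 ± 6.16 CPM and did not pass. Among CD2 ligands and adhesion partners, 2 of 8 tested genes rose. These were *Cd48*, the CD2 ligand of mice (log2 fold change 0.59, edgeR adjusted p = 0.0208), and *Itgal*, the LFA-1 alpha chain gene (1.26, edgeR adjusted p = 0.000946).

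**Figure D3:**
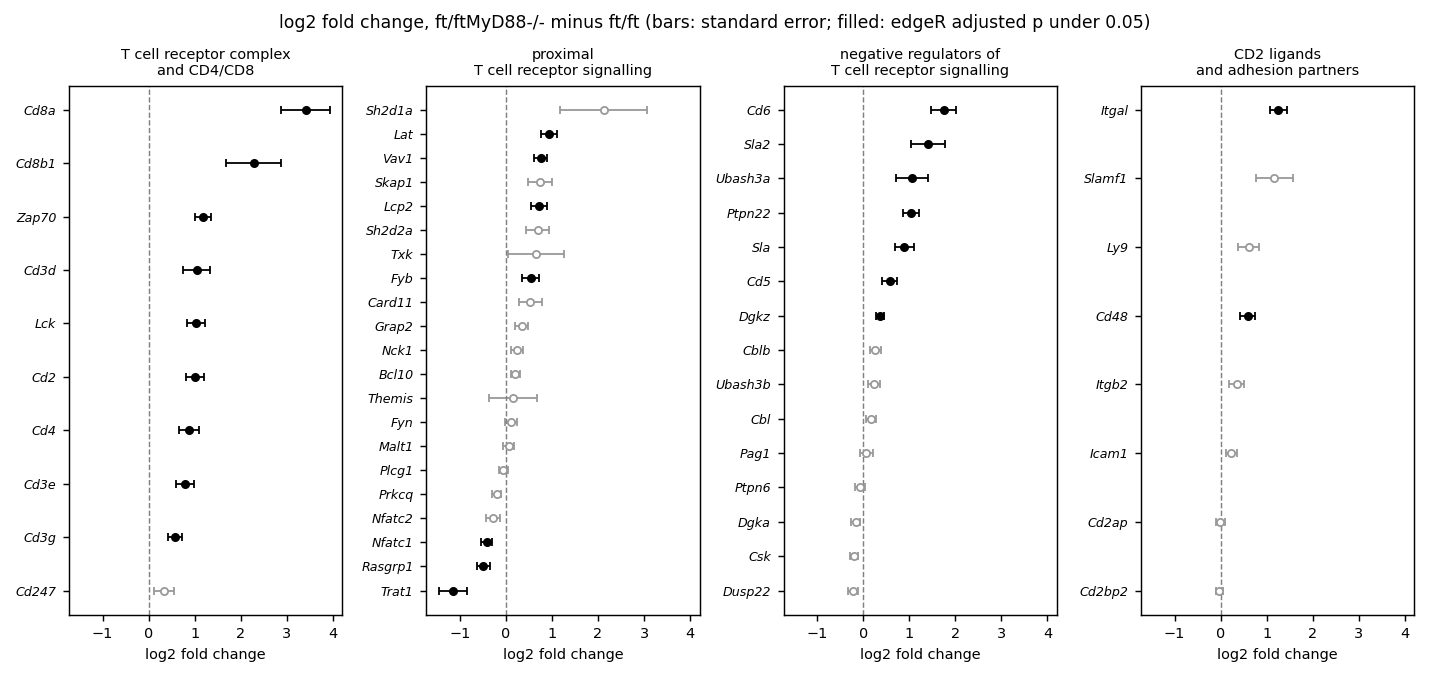
Log2 fold change (x axis) of the 10 genes and of tested genes of the 3 pathway lists, 1 panel a list. Bars are standard errors, filled points passed an edgeR adjusted p of 0.05, and open points did not. *Cd8a* (3.41) and *Cd8b1* (2.29) lie farthest to the right of the 10, and *Trat1* (-1.15) is the lowest of the lists.

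Of the constant genes of the receptor chains, *Trbc2*, the most abundant, did not pass (9.42 ± 1.60 and 11.5 ± 2.47 CPM, log2 fold change 0.29, edgeR adjusted p = 0.247), while others rose. The other beta constant gene, *Trbc1*, rose from 1.93 ± 0.545 to 5.12 ± 1.44 CPM (log2 fold change 1.39, edgeR adjusted p = 0.00232). The alpha constant gene *Trac* went from 1.01 ± 0.148 to 2.16 ± 0.401 CPM (log2 fold change 1.11, edgeR adjusted p = 0.00436), and the delta constant gene *Trdc* at 1.80 ± 0.596 and 3.35 ± 0.535 CPM (0.91, edgeR adjusted p = 0.0194). *Tcrg-C2* had the largest change of the constant genes, from 0.772 ± 0.336 to 3.01 ± 0.273 CPM (1.97, edgeR adjusted p = 0.0006), though reads of near-identical gamma and beta constant genes could have been split or dropped in counting.

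The 10 genes are not all particular to T cells, so marker lists of other cells are set beside them. NK cells share *Cd247*, *Lck*, *Zap70* and *Cd2*. Of 11 tested NK cell genes, 6 rose and 1 fell, with a summed level over the list of 18.9 to 24.3 CPM in ft/ft and 27.6 to 49.3 in ft/ftMyD88-/-. Most of that sum came from *Fcgr3* (16.2 and 32.4 CPM), which myeloid cells also use, while the defining NK gene *Ncr1* was at 0.169 ± 0.121 and 0.472 ± 0.129 CPM. *Klrd1* and *Gzma*, a receptor and a granzyme gene, had log2 fold changes of 1.88 and 1.89 (edgeR adjusted p = 0.00311 and 0.00706), and *Prf1*, the perforin gene, was the one that fell (-1.23, edgeR adjusted p = 0.0173). Type 1 conventional dendritic cells can carry CD8 alpha. Of their 7 genes 3 rose, among them *Xcr1* from 2.18 ± 0.953 to 4.97 ± 0.656 CPM, 2 fell (*Tlr3* and *Cadm1*), and the summed levels overlapped (79.3 to 91.0 CPM in ft/ft, 85.0 to 96.7 in ft/ftMyD88-/-). Macrophage and monocyte genes rose in 3 of 9, with summed levels of 468 to 601 CPM in ft/ft and 657 to 936 in ft/ftMyD88-/-. Without *Lyz2* (260 and 514 CPM) the other 8 genes overlapped, with 226 to 327 CPM in ft/ft and 256 to 384 in ft/ftMyD88-/-. B cell genes rose in 1 of 8 tested, *Blk*, which gamma delta T cells also use, and the defining *Ms4a1* had means of 0.137 ± 0.158 and 0.0693 ± 0.0855 CPM. No list had a gene at 0 in all libraries. Pan-leukocyte genes rose in 5 of 8, from 252 to 321 summed CPM in ft/ft to 307 to 418 in ft/ftMyD88-/-, keratinocyte genes fell in 4 of 8 and skeletal muscle genes in 8 of 10. The part of these cells, and of the amount of muscle in the biopsy, in the changes of the 10 genes was not tested.

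Lists for T cells themselves also had more genes higher than lower in ft/ftMyD88-/-. Alpha beta T cell genes rose in 6 of 10 and fell in none, with a median log2 fold change of 0.81 and summed levels of 82.2 to 98.2 CPM in ft/ft and 122 to 135 in ft/ftMyD88-/-. The largest part of that sum was *Bcl11b*, which did not pass (56.9 ± 7.39 and 63.9 ± 4.95 CPM, edgeR adjusted p = 0.263). *Tcf7* (13.5 ± 1.69 and 26.1 ± 6.91 CPM) and *Lef1* (2.55 ± 0.302 and 10.0 ± 5.91 CPM) added most to its rise. *Tcf7*, a transcription factor gene of the list, rose by 0.95 on the log2 scale (edgeR adjusted p = 0.0023). *Lef1*, which hair follicles use too, had 1.96 (edgeR adjusted p = 0.00884). In ft/ftMyD88-/- replicates 1 to 4, *Tcf7* stood at 35.6, 20.5, 21.5 and 26.6 CPM and *Lef1* at 17.9, 4.23, 7.08 and 10.9. Both were highest in replicate 1, where *Trac* (1.67 CPM) and *Trbc1* (3.51 CPM) had their lowest ft/ftMyD88-/- values. The part of other skin cells in *Bcl11b*, *Tcf7* and *Lef1*, and so in the summed level of the list, was not tested. Gamma delta T cell genes rose in 7 of 11 and fell in 1, with a median of 0.91 and summed levels of 48.2 to 52.8 and 57.4 to 63.5 CPM. *Il17a* was the largest of these (log2 fold change 4.27, edgeR adjusted p = 0.000537).

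**Figure D4:**
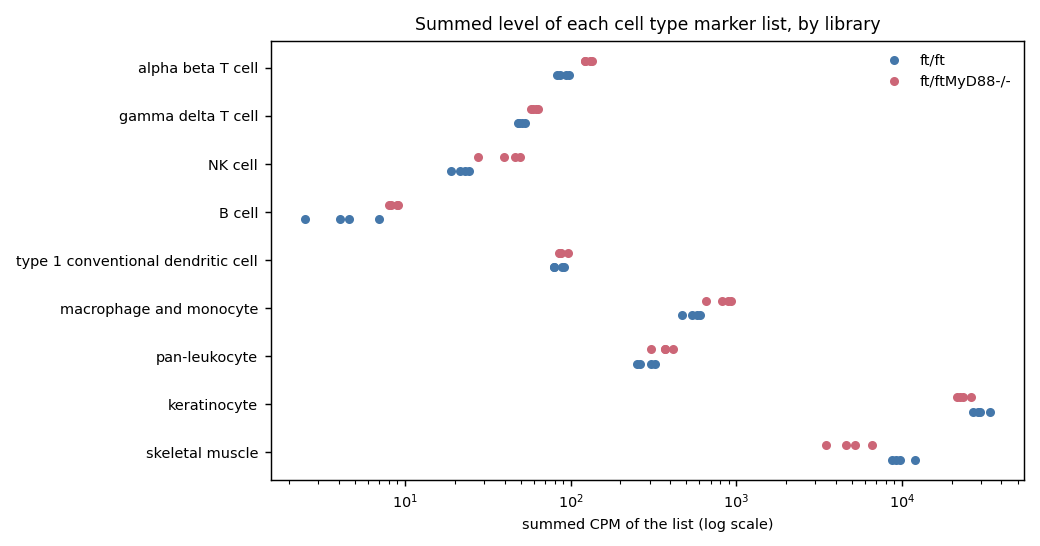
Summed CPM (log x axis) of each cell type marker list in the 4 ft/ft and the 4 ft/ftMyD88-/- libraries. Points are libraries. The alpha beta T cell list lies at 82.2 to 98.2 CPM in ft/ft and at 122 to 135 in ft/ftMyD88-/-, the dendritic cell and pan-leukocyte lists overlap, and the keratinocyte and muscle lists are lower in ft/ftMyD88-/-. *Bcl11b*, which did not pass, is the largest part of the alpha beta T cell sum.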

How the data were processed

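The analysis covered 4 ft/ft and 4 ft/ftMyD88-/- RNA-seq libraries of periocular skin. The study gives 4 mice in each group. The authors deposited raw read counts per gene symbol, made per the study's methods with HISAT and tophat2 on GRCm38.p6 and HTSeq at default parameters after polyA selection and TruSeq preparation. The sample labels instead name Cell Ranger, GRCm38 and a fixed-tissue protocol. Versions are not given in the sources used here. Testing used edgeR 4.0.16 on genes whose 8 counts added up to 10 or more (R 4.3.3, glmQLFit with robust = TRUE, glmQLFTest, TMM, two-sided, no covariate), with Benjamini-Hochberg adjustment and a threshold of 0.05. Standard errors came from the log2 fold change and the F value. CPM are counts over TMM-scaled library sizes. Ratios were tested with exact permutations (Python 3.11.15), after adding 0.5 to each count. Coordinates and promoters are from RefSeq GRCm38.p6 and exon lengths from GENCODE M21.

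The genes and lists were chosen with earlier results of these data known. Genes named were the 10 genes, 4 checks of the labels (*Myd88*, *Flg*, *Xist*, *Ddx3y*), the 3 smallest adjusted p in each direction of each list, list genes at or near 0, and the 10 genes with a mean of at least 50 counts most like the CD3 genes. *Flg* itself did not pass (103 ± 69.8 CPM in ft/ft, 242 ± 39.5 in ft/ftMyD88-/-, SD, n = 4). *Tmem79*, *Pou2f1*, the T cell receptor constant genes and genes named as not passing or as shared with other cells were added after their values were seen. Of the listed names, *Cd58*, *Cd244a*, *Trgc1*, *Trgc2*, *Trgc4* and *Klra8* matched no row. Some listed genes are counted but not reported here by name.

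Alternatives were DESeq2 1.42.0, limma voom 3.58.1, RLE factors, library size only, filterByExpr, no filter, blocking on the replicate number, leaving out each library, an adjusted p of 0.01, a log2 fold change of at least 1, and 1 or 0.1 added in ratios. Replicate pairs differed beyond counting noise (chi-square per degree of freedom at least 16.3), so all were kept as separate. On simulated data with 200 of 20194 genes changed 4-fold, the fit called 200 of the 200 and 7 unchanged genes. Apart from *Cd8a* and *Cd8b1*, the genes followed here had smaller ratios of group means, from 1.27 (*Cd247*) to 2.25 (*Zap70*). Recovery of changes of that size was not tested. For genes as scarce as *Cd8a* and *Cd8b1* it was not assessed separately, so the simulation does not give the power for the genes followed here.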

Additional observations from a re-analysis of the deposited data

Results flagged for a closer look

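In 3 of the 60 groups of 4 values examined, 1 library stood far from the other 3 by Dixon's ratio of the gap to the whole range beyond its 95% critical value, and chance alone marks about 1 in 20 such groups. All 3 concerned *Cd8b1*. In ft/ft its CPM had a ratio of 0.950, because replicate 3 stood at 0.167 CPM from 3 counts where the others had 1 count each. The log2 ratio of *Cd8b1* to *Cd3e* had a ratio of 0.848 in ft/ft, again through replicate 3, and of 0.830 in ft/ftMyD88-/-, through replicate 4 with 3 counts. Each rests on a few reads.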

How the results depend on the processing

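The number of the 10 genes called higher stayed between 6 and 9 in the fits that left out each library, with 6 without ft/ft replicate 4, and was 4 at an adjusted p under 0.01. None was called lower under any setting. Of the values of the 10 genes under alternatives, 144 kept their direction and side of the threshold and 5 kept their direction without passing, those given for *Cd3d*, *Cd3g* and *Cd8b1*. With filterByExpr *Cd8b1* was not tested and 8 genes were called. Scaling by total counts alone moved the median of all genes by 0.18 (log2) and left the same 9 of the 10 genes called, with *Cd247* at a log2 fold change of 0.51.

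For the 45 pathway genes, the 14 higher and 3 lower became 27 and 1 under that scaling, 8 and 0 at an adjusted p under 0.01, and 5 and 1 at a log2 fold change of at least 1. Leaving out each library gave 11 to 15 higher and 0 to 3 lower (1 without ft/ft replicate 3 or 4, 0 without ft/ftMyD88-/- replicate 4). The ratios whose groups did not overlap numbered 2, and 2 to 6 with each library left out, with 6 without ft/ft replicate 3 and 4 without ft/ftMyD88-/- replicate 4. The cause was not tested.

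The labels number the libraries 1 to 4 in both groups, but deviations of same-numbered libraries correlated at -0.15, 0.03, 0.01 and -0.02, so they share a number only. With it as a replicate block, 9 of the 10 genes and 13 higher and 3 lower pathway genes were called, and 5 ratios had all 4 differences of one sign (exact sign-flip p of at least 0.125). The depth limits *Cd8a* and *Cd8b1* most, since 3 counts were 0.102 to 0.183 CPM.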
